A study of Mus musculus with 47 samples.

Results

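The change that germ-free life made to the transcriptome of the mouse ileum was measured apart in the dark and in the light phase of the day. All libraries labelled ileum in the deposited table of exon read counts were used, 23 of 47, the other 24 being duodenum. Flora and phase together gave 4 groups. Germ-free (GF) mice in the dark gave 6 libraries, 2 each at zeitgeber time (ZT, hours after lights on) 14, 18 and 22. GF mice in the light gave 5 libraries, 1 at ZT2 and 2 each at ZT6 and ZT10. Conventionally raised (convR) mice, which carry a gut flora, gave 6 libraries in the dark and 6 in the light, 2 at each of the same times. All mice were C57BL/6J males aged 15 to 16 weeks with food at all times. The labels do not say whether a library is 1 mouse or a pool, so p-values measure the spread between libraries.

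Microbial products reach the ileal epithelium continuously, and they induce antimicrobial lectins, oxidant enzymes and, through interferon gamma from resident lymphocytes, antigen presentation genes. Mice eat mainly at night, and the molecular clock of the gut (the activators Arntl and Clock, the repressors Per, Cry and Nr1d, and output factors such as Dbp, Tef and Hlf) gives many epithelial genes a daily rhythm. The comparison asked in which genes the presence of the flora mattered mainly in 1 phase. It was tested as the GF over convR effect in the dark minus the same effect in the light, which is called the interaction here and given in log2 units.

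Total counts ran from 24.9 to 41.9 M per library. Fabp6, the ileal bile acid carrier, stood between 1951 and 4521 CPM (counts scaled to library size) in 21 libraries. It stood at 631 CPM in GF ZT22 replicate 2 and 212 CPM in convR ZT6 replicate 2. Markers of proximal gut enterocytes averaged 307 and 217 CPM in those libraries, the highest of GF ileum in the dark and of convR ileum in the light. They also averaged 244 CPM in GF ZT14 replicate 1 and 194 CPM in GF ZT18 replicate 2. The other GF libraries in the dark held 49.1 to 69.8 CPM, and convR libraries in the dark at most 108 CPM. Calls and counts of the text that were lost or moved most without the 2 libraries low in Fabp6 are given with and without them. In such tissue samples fewer cells of a type and less RNA per cell cannot be told apart.

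The absence of a flora changed much of the ileal transcriptome in both phases, and largely the same genes. Of 18944 genes tested with edgeR's quasi-likelihood test, 5410 (28.6%) differed between GF and convR ileum in the dark at an adjusted p under 0.05, 2355 of them higher in GF (12.4%) and 3055 lower (16.1%). In the light 4264 genes (22.5%) passed, with 1700 higher (8.97%) and 2564 lower (13.5%). Scaling by library size alone moved this split to 1304 higher and 3960 lower in the dark and to 1189 higher and 2677 lower in the light. Counts of list members below are to be read beside the shares of all genes given here. Both phases called 3322 genes (17.5%), 61.4% of the dark calls and 77.9% of the light calls. All 3322 had the same sign in both phases, 1210 higher and 2112 lower in GF. Their median absolute effect was 0.64 log2 in the dark and 0.66 log2 in the light. Over the 13659 genes with a mean of 2 CPM or more the effects of the 2 phases had a Pearson correlation of 0.927 across genes. The 2 effects come from 1 fit with shared scaling and dispersions but no shared library or time term. Genes are not independent replicates.

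**Figure D1:**
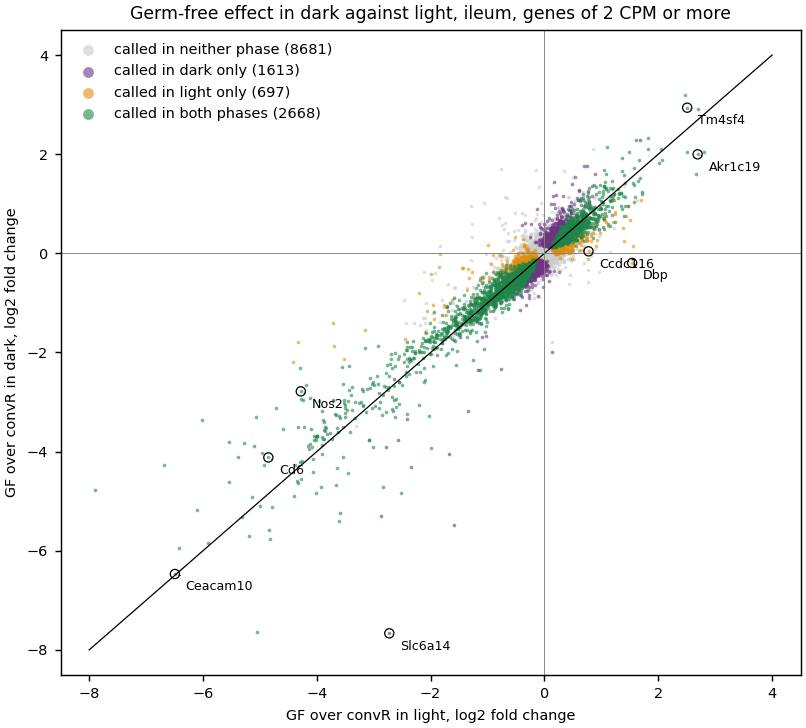
The GF over convR effect in the dark (vertical axis) against the effect in the light (horizontal axis), both as log2 fold change, for genes with a mean of 2 CPM or more. Each point is a gene coloured by the phases in which it was called, the line marks equal effects, and the 2668 genes called in both phases lie along it at the lower left and the upper right.

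No gene passed the test of the interaction. Its call rate was 0% (0 of 18944 genes), with a smallest adjusted p of 1 in edgeR. An unadjusted p under 0.05 was found for 621 genes (3.28%), 375 with a more positive effect in the dark (1.98%) and 246 with a more negative one (1.3%). By chance a share of about 0.05 would fall under this threshold, so small p-values were fewer than chance gives. Why was not tested. Over all genes the estimate was above 0 for 10013 and below 0 for 8931, to be read beside the sign counts of lists below. DESeq2 called 1 gene, Ccdc116 (adjusted p = 0.0358). No gene therefore met the rule for a response mainly in 1 phase, which required a called interaction, a called effect in 1 phase and an effect at most 0.5 times as large in the other. A list of genes called in 1 phase alone is not such a group. The 2088 genes called only in the dark had a median absolute effect of 0.38 log2 in the dark and 0.20 log2 in the light, and 1970 of them kept their sign in the light. The 942 genes called only in the light had 0.20 log2 in the dark and 0.43 log2 in the light, and 895 kept their sign in the dark.

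How large a difference between phases could have escaped is set by the intervals. The 95% interval of the interaction had a median half-width of 0.28 log2 over genes of 2 CPM or more. It lay within 1 log2 of 0 for 12766 of these genes (93.5%), and for 2641 of the 3322 genes called in both phases. Known interactions were added to simulated counts of the same depth and groups, in a fit of 18794 genes. The test recovered 52 of 67 interactions of 1 log2 (77.6%) and 60 of 66 of 2 log2 (90.9%). Of those of 0.5 log2 it recovered 16 of 67 (23.9%). Interactions of 0.5 log2 are therefore mostly not detectable at this number of libraries. The added interactions were in genes of 2 CPM or more, and the shares hold for that number of them. Simulated counts varied independently between genes, without shifts of tissue makeup between libraries. Of genes without an added interaction 4.49% had an unadjusted p under 0.05, against 3.28% of the measured genes (edgeR). The shares may therefore be too high for the measured libraries. In the measured libraries estimates of -1.73 log2 (Dbp) and 1.497 log2 (Nos2) did not pass. How many interactions of 1 log2 or more were missed there was not tested.

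Genes of antigen presentation by major histocompatibility complex (MHC) class II fell in GF ileum by about the same factor in both phases. Of 11 members tested, 7 fell in the dark and 7 in the light, with a list median of -3.08 log2 in the dark and -3.23 log2 in the light, against 0.01 and 0 over all genes. H2-Aa, a class II alpha chain, averaged 62.1 ± 15.1 CPM in GF and 702 ± 119 CPM in convR ileum in the dark (SD, n = 6 each). In the light it averaged 57.4 ± 10.04 CPM in GF (n = 5) and 661 ± 165 CPM in convR ileum (SD, n = 6). Its interaction was 0.05 log2 with an SE of 0.27 (unadjusted p = 0.866). H2-Eb1, a beta chain, averaged 37.4 ± 10.3 CPM in GF and 315 ± 46.0 CPM in convR ileum in the dark, and 35.1 ± 6.73 CPM in GF and 311 ± 65.3 CPM in convR ileum in the light. Ciita, the coactivator that switches class II genes on, had effects of -2.996 log2 in the dark and -3.23 log2 in the light, both called. The GF and convR means of these genes thus stood about as far apart in either phase.

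Class II promoters are known for a Y box, bound by the NF-Y factor. The letters CTGATTGG, searched on both strands, occur in 4 of the 8 list members with a promoter in the RefSeq table (H2-Aa, H2-Eb1, H2-Eb2 and H2-Oa), and in 3.16% of 32851 promoters over the same 150 bases before the start site. Members count genes with a match in any of their promoters, while the 32851 are single promoters of 27025 genes. The 2 shares are thus not in the same unit. The 2 promoters below belong to the members just described, chosen after their values were seen, with the match in capitals. They lie on GRCm38.p6 at chr17:34287824-34287973 (minus strand) and chr17:34305717-34305866 (plus strand), 51 and 62 bases before the start site.
H2-Aa: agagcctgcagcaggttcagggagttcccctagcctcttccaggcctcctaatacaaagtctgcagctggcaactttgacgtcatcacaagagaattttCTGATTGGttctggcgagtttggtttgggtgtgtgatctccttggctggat
H2-Eb1: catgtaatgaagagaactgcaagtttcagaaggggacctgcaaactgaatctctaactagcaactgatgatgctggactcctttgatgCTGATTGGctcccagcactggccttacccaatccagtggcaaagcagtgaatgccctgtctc
A match of letters describes the sequence and says nothing of binding in these mice.

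Lymphocyte transcripts were lower in GF ileum throughout the day. Of 23 markers of T cells and intraepithelial lymphocytes, 22 fell in the dark and 23 in the light, with medians of -2.96 and -3.44 log2. Their mean level per library ran from 0.804 to 1.67 CPM in GF and from 5.72 to 10.2 CPM in convR ileum in the dark. In the light it ran from 0.731 to 1.41 CPM in GF and from 5.30 to 12.8 CPM in convR ileum, so GF and convR libraries did not overlap in either phase. The interaction was above 0 for all 23 markers (median 0.47 log2), with no call. Without the 2 libraries low in Fabp6 it was above 0 for 17 of 23 (median 0.24 log2). Gzma, a granzyme of cytotoxic lymphocytes, stood 3.54 log2 lower in the dark and 4.59 log2 lower in the light. Cd6, a T cell surface receptor, was at 0.0564, 0.277 and 0.465 CPM in GF and at 2.145, 4.19 and 7.07 CPM in convR ileum in the dark (lowest, median and highest of 6 libraries). In the light its GF libraries held 0.0316, 0.0433, 0.188, 0.221 and 0.266 CPM, and its convR libraries 2.98, 3.46 and 9.41 CPM (lowest, median and highest).

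Of 17 markers of B and plasma cells, 10 fell in the dark and 10 in the light, with medians of -1.72 and -2.46 log2. Those that fell by most include Igha, the heavy chain of secreted immunoglobulin A, and Jchain, which joins its units. Igha averaged 159 ± 43.9 CPM in GF and 2387 ± 1012 CPM in convR ileum in the dark, and 140 ± 74.8 CPM in GF and 2443 ± 726 CPM in convR ileum in the light. The interaction was above 0 for all 17 markers with a median of 0.48 log2. Without convR ZT10 replicate 1 that median was 0.08 log2, with 12 of 17 above 0. Of 13 markers of lymphoid follicles 2 fell in each phase (1 to 3 in the dark and 1 to 4 in the light when 1 library was left out), a share near that of all genes, 16.1% in the dark and 13.5% in the light. The same library moved their interaction. Their median interaction was 0.62 log2 with it and 0.02 log2 without it. All 18 markers of macrophages and dendritic cells tested fell in the dark and 15 fell in the light, with medians of -0.93 and -0.86 log2.

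**Figure D2:**
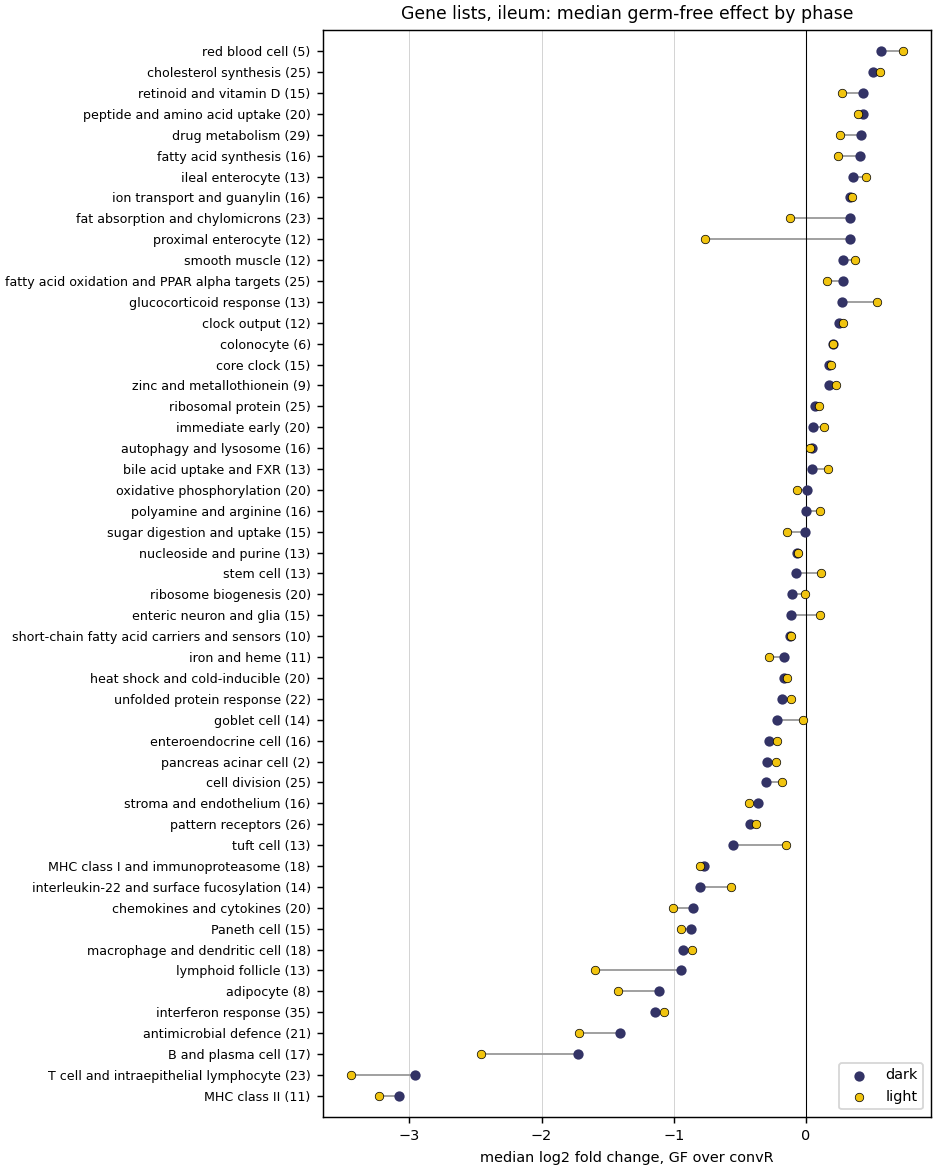
Median GF over convR log2 fold change of each gene list in the dark (dark points) and in the light (yellow points), with the number of members tested in parentheses. The lists that stand lowest, MHC class II and the T cell markers, lie near -3 log2 in both phases. With all 23 libraries, as drawn, the proximal enterocyte and fat absorption lists have the points on opposite sides of 0. For fat absorption both medians are above 0 without convR ZT6 replicate 2.

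Epithelial defence genes responded to the flora in both phases. Of 21 antimicrobial genes, 16 were lower and 1 higher in GF ileum in the dark, and 15 were lower and 1 higher in the light. Reg3g, a lectin that kills Gram-positive bacteria, averaged 245 ± 127 CPM in GF and 2165 ± 645 CPM in convR ileum in the dark, and 349 ± 67.8 CPM in GF and 2187 ± 567 CPM in convR ileum in the light. The higher gene was Reg3a, at 1.05 log2 in the dark and 1.002 log2 in the light. Duoxa2, the maturation factor of the epithelial oxidase Duox2, fell by 4.18 log2 in the dark and by 4.26 log2 in the light. Of 15 Paneth cell markers 14 fell in each phase, with medians of -0.87 and -0.94 log2. Reads of the near-identical alpha-defensins, and of overlapping genes, may have been split or shared in counting, so single values of these are uncertain.

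Nos2, the inducible nitric oxide synthase, had the smallest interaction p of the antimicrobial list. In the dark it stood at 9.34, 23.9 and 33.2 CPM in GF and at 71.1, 135.5 and 343 CPM in convR ileum (lowest, median and highest). In the light the GF libraries held 7.19, 8.69, 9.26, 12.7 and 21.1 CPM, and the convR libraries 137, 189 and 495 CPM (lowest, median and highest). GF and convR libraries did not overlap in either phase. The effect was -2.78 log2 in the dark and -4.28 log2 in the light, both called. The interaction of 1.497 log2 (95% interval 0.45 to 2.54) had an unadjusted p of 0.00784 and did not pass. The convR groups each held 1 library far above the others, 343 CPM at ZT18 in the dark and 495 CPM at ZT10 in the light.

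Receptors and adaptors that sense microbes, with their feedback inhibitors, numbered 26 on the list. In the dark 16 were lower and 1 higher in GF, Ticam1, and in the light 15 were lower. Nfkbia encodes I-kappa-B alpha, which holds NF-kappa-B in the cytoplasm. It stood at 42.8, 48.5 and 60.1 CPM in GF and at 56.3, 66.2 and 78.9 CPM in convR ileum in the dark (lowest, median and highest). In the light the GF libraries held 42.5, 47.7, 48.5, 54.5 and 56.5 CPM, and the convR libraries 73.9, 86.7 and 99.1 CPM. GF and convR libraries were apart in the light and overlapped in the dark. Nfkbia fell by 0.40 log2 in the dark (adjusted p = 0.00321) and by 0.81 log2 in the light (adjusted p = 6.41e-06, edgeR). Without ZT22 the dark effect of Nfkbia had an adjusted p of 0.0592. Nfkbiz, an NF-kappa-B cofactor in the nucleus, fell by 0.87 log2 in the dark and by 1.29 log2 in the light. Tnfaip3, the deubiquitinase A20, had effects of 0.15 log2 in the dark and -0.35 log2 in the light, the second with adjusted p-values of 0.00876 to 0.164 when 1 library at a time was left out and 0.122 without the 2 libraries low in Fabp6. The interactions were 0.42, 0.42 and 0.51 log2, with unadjusted p-values of 0.00588, 0.00991 and 0.00561, and none passed.

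Clock genes gave several of the smallest interaction p-values. Of 15 core clock genes, 4 were higher and 2 lower in GF ileum in the dark, and 6 were higher and 4 lower in the light. Of all genes 12.4% were higher and 16.1% lower in the dark, and 8.97% were higher and 13.5% lower in the light. Without the 2 libraries low in Fabp6 the light counts were 4 higher and 2 lower, and the light calls of Arntl (adjusted p = 0.0984), Cry1 (0.0681), Per1 (0.0999) and Per3 (0.0711, edgeR) were lost. Without GF ZT6 replicate 1 the light counts were 4 higher and 1 lower. Called in both phases were Clock, the partner of Arntl, with effects of 0.22 and 0.19 log2, Cry2 with 0.72 and 0.69 log2, Rora with -0.41 and -0.45 log2 and Bhlhe41 with -1.48 and -0.81 log2 (dark and light). For Clock the calls of both phases were lost when libraries were scaled by their size alone, and the light call also without ZT10. For Bhlhe41 the light value had adjusted p-values of 0.0171 to 0.183 when 1 library at a time was left out.

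Dbp, a transcription factor driven by Clock and Arntl, separated the groups at ZT6. Its GF libraries held 33.0 and 39.8 CPM there, against 4.28 and 4.35 CPM in convR ileum. At ZT10 the values were 75.3 and 90.4 CPM in GF and 44.5 and 50.8 CPM in convR ileum. At ZT14 they were 36.5 and 42.7 CPM in GF and 37.8 and 44.7 CPM in convR ileum. GF libraries were thus above convR libraries at ZT6 and ZT10 and overlapped them at ZT14. The mean log2 differences over ZT2, ZT6, ZT10, ZT14, ZT18 and ZT22 were 0.36, 2.93, 0.79, -0.06, 0.18 and -0.56. The fitted effect was -0.19 log2 in the dark (SE 0.33, adjusted p = 0.699) and 1.54 log2 in the light (SE 0.37, adjusted p = 0.00577, edgeR). Without ZT6 the light effect was 0.67 log2 and lost its call (adjusted p = 0.0899). The interaction of -1.73 log2 (95% interval -2.77 to -0.70, unadjusted p = 0.00271) did not pass.

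Ciart, Tef and Nr1d2, picked from the clock lists by their interaction p, had the same order of values at ZT6. Their lists were mixed. Of 12 clock output genes, 5 were higher and 0 lower in GF in the dark, and 5 higher and 1 lower in the light. The interaction was above 0 for 8 of these 12 and below 0 for 4, with a median of 0.14 log2. Among the 15 core clock genes it was above 0 for 9 and below 0 for 6. Ciart, a repressor of the Clock and Arntl pair, held 1.55 and 2.52 CPM in GF and 0.147 and 0.395 CPM in convR ileum at ZT6, and 10.4 and 14.3 CPM in GF and 4.59 and 4.99 CPM in convR ileum at ZT10. Its effects were 0.14 log2 in the dark and 1.56 log2 in the light, with an interaction of -1.42 log2 (unadjusted p = 0.00741). Tef, of the same family as Dbp, held 88.6 and 107 CPM in GF and 29.7 and 32.4 CPM in convR ileum at ZT6, with effects of 0.16 log2 in the dark and 0.90 log2 in the light. Nr1d2, a repressor of Arntl, held 109 and 147 CPM in GF and 47.7 and 55.1 CPM in convR ileum at ZT6, with effects of -0.11 log2 in the dark and 0.76 log2 in the light. In each of these 3 genes both GF libraries at ZT6 exceeded both convR libraries. How many of all genes did so was not counted. The ZT6 values also enter the interaction p by which these genes were picked, so this order is no separate evidence. Light effects of Ciart, Tef and Nr1d2 were called, their dark effects were not, and no interaction passed. Without ZT6 the light effects of Tef and Nr1d2 had adjusted p-values of 0.0590 and 0.240 (edgeR).

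Cry1, a repressor of the clock, had effects of 0.33 log2 in the dark and -0.51 log2 in the light and an interaction of 0.84 log2 (unadjusted p = 0.00138). The light value of Cry1 had adjusted p-values of 0.00786 to 0.121 when 1 library at a time was left out and 0.0681 without the 2 libraries low in Fabp6.

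A fit with a separate flora effect at each of the 6 times, chosen after seeing the data, tested whether the effect varied in time at all. It called 0 of 18944 genes, with 535 (2.82%) at an unadjusted p under 0.05, again a share below 0.05. Dbp had an adjusted p of 0.183 (edgeR), the lowest reached. A change of the flora effect over the 6 times was therefore not detected for any gene, the clock genes included.

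**Figure D3:**
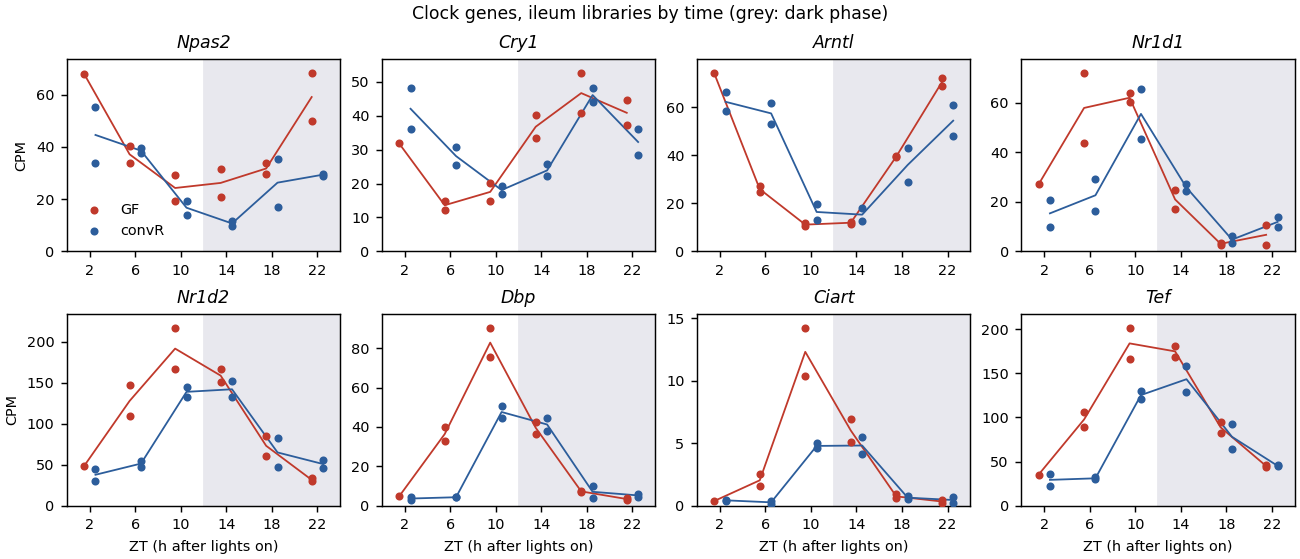
Levels in CPM (vertical axes) of 8 clock genes against ZT (horizontal axes, dark phase in grey) in GF (red) and convR (blue) ileum. Points are libraries and lines join the means of each time, and GF points of Dbp, Ciart, Tef and Nr1d2 lie above convR points at ZT6.

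E-boxes, the letters CACGTG that the Clock and Arntl pair is known to bind, were searched in the same 150 bases. They occur in 3 of 22 core clock and output genes with a promoter in the table, Ciart, Cry1 and Tef, and in 4.3% of all promoters. Here too the first share counts genes and the second single promoters. Ciart and Tef had higher values in GF in the light and Cry1 had lower ones. The windows lie on GRCm38.p6 at chr3:95882229-95882378 (minus strand), chr15:81802523-81802672 (plus strand) and chr10:85185055-85185204 (minus strand), with matches in capitals at 116, 58 and 44 bases before the start site in Ciart, 127 in Tef and 60 in Cry1.
Ciart: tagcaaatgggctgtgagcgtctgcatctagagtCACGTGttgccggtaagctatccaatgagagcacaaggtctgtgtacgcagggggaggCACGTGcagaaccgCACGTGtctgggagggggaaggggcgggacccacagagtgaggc
Tef: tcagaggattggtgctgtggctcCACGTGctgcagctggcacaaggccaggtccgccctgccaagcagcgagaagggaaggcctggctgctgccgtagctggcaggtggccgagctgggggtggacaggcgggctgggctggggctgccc
Cry1: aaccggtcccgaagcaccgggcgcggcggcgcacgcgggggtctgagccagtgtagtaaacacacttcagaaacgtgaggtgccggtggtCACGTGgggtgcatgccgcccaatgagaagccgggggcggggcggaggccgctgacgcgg
The match is shared by genes whose interactions had opposite signs. Dbp and the other members may carry these letters outside this window, which was not searched.

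Beyond the clock, genes were named for the smallest interaction p in either direction, and none passed. Skil, a repressor of transforming growth factor beta signals, held 148, 187 and 231 CPM in GF and 209, 268 and 294 CPM in convR ileum in the dark (lowest, median and highest). Light-phase values of its GF libraries were 92.2, 94.4, 115, 133 and 161 CPM, and those of its convR libraries 228, 248 and 312 CPM. Every GF library in the light was below every convR library, and in the dark the groups overlapped. Skil fell by 0.47 log2 in the dark (SE 0.10, adjusted p = 0.00107) and by 1.09 log2 in the light (SE 0.10, adjusted p = 4.54e-07, edgeR). The interaction was 0.62 log2 (95% interval 0.33 to 0.91, unadjusted p = 2.71e-04).

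Acsl1, which activates long-chain fatty acids, held 82.8, 92.1 and 104 CPM in GF and 54.4, 60.1 and 67.3 CPM in convR ileum in the dark. In the light its GF libraries held 63.9, 66.7, 68.6, 69.0 and 76.8 CPM, and its convR libraries 53.5, 61.0 and 63.4 CPM. GF and convR libraries did not overlap in either phase. Acsl1 rose by 0.60 log2 in the dark (adjusted p = 1.72e-06), its effect in the light was 0.19 log2 (adjusted p = 0.0628, edgeR), and the interaction was 0.42 log2 (unadjusted p = 3.46e-04). Cldn4, a tight junction protein, had effects of -0.38 log2 in the dark (adjusted p = 0.0669) and -1.28 log2 in the light (adjusted p = 1.80e-05, edgeR). Slc34a2, the phosphate carrier of the ileal brush border, had effects of 0.61 log2 in the dark, which passed, and -0.34 log2 in the light, which did not. Without ZT14, or without ZT22, the dark effect of Slc34a2 did not pass. Blcap had effects of 0.22 log2 in the dark and -0.15 log2 in the light.

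Ccdc116, a coiled-coil protein with little known of its role (chr16:17139064-17147229, minus strand, mm10), had the smallest interaction p of all named genes. Its GF libraries in the dark held 8.97, 10.96 and 17.4 CPM and its convR libraries 8.61, 12.1 and 15.1 CPM (lowest, median and highest). In the light the GF libraries held 17.3, 23.4, 23.5, 27.5 and 28.7 CPM, and the convR libraries 8.84, 13.1 and 19.0 CPM. Groups overlapped in the dark, and in the light only the GF library of ZT2 fell within the convR range. The effect was 0.04 log2 in the dark (SE 0.10, adjusted p = 0.789) and 0.77 log2 in the light (SE 0.10, adjusted p = 1.79e-05, edgeR). The interaction was -0.73 log2 (95% interval -1.03 to -0.43, unadjusted p = 5.29e-05). It did not pass in edgeR with the filter on low counts, and passed in DESeq2 and in edgeR without that filter (adjusted p = 0.0141).

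Traf4, an adaptor of the tumour necrosis factor receptor family, held 44.3, 50.5 and 55.1 CPM in GF and 40.3, 45.2 and 49.7 CPM in convR ileum in the dark. Light-phase values of its GF libraries were 45.0, 56.9, 58.4, 60.4 and 65.5 CPM, and those of its convR libraries 31.9, 37.7 and 44.2 CPM. Traf4 rose by 0.55 log2 in the light, and its dark effect was 0.16 log2, with adjusted p-values of 0.00558 to 0.132 when 1 library at a time was left out. Csrnp2, a nuclear transcription regulator, had -0.38 log2 in the dark, which passed with all times and not without ZT14 (adjusted p = 0.190), and 0.26 log2 in the light. Cenpf and Depdc1a, which act in mitosis, fell by 0.35 and 0.43 log2 in the dark and had -0.05 and 0.04 log2 in the light.

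**Figure D4:**
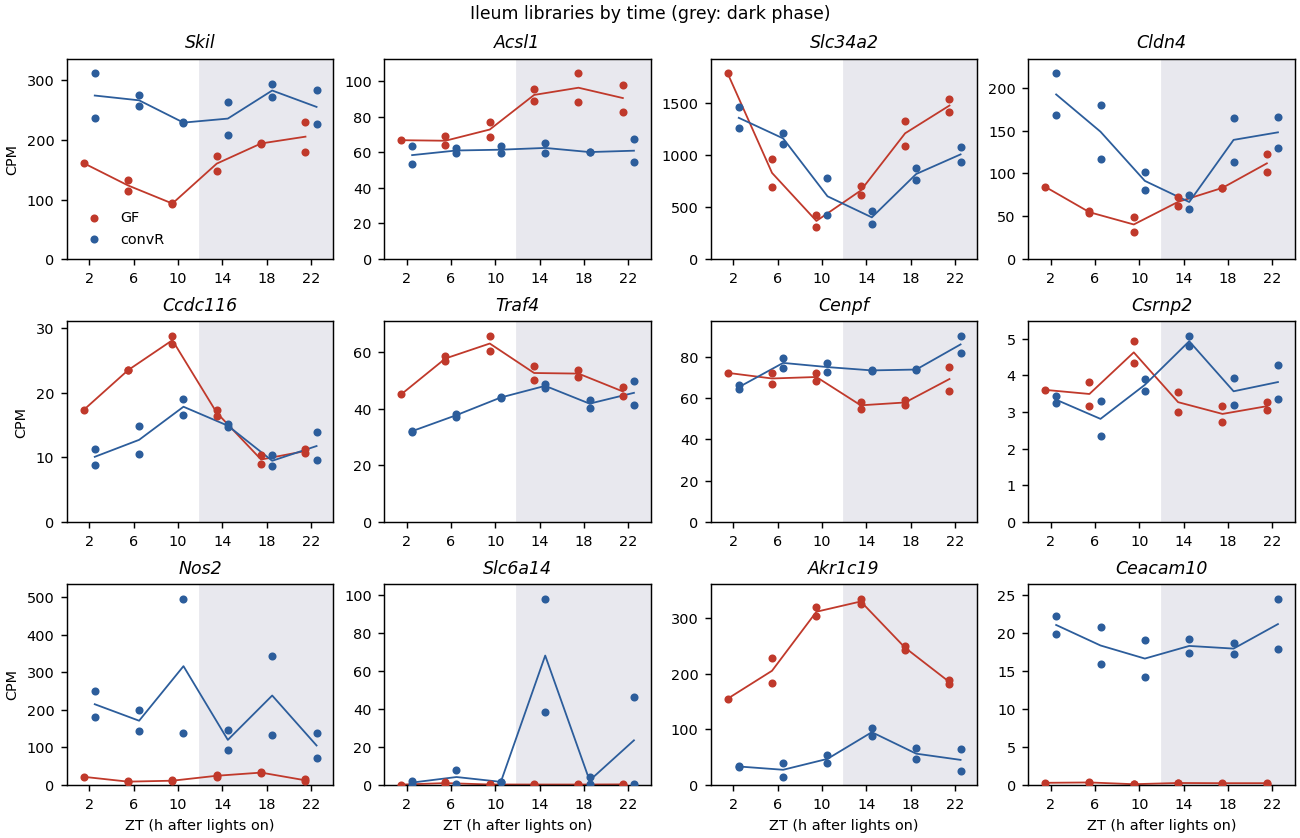
Levels in CPM (vertical axes) of 12 genes against ZT (horizontal axes, dark phase in grey) in GF (red) and convR (blue) ileum. Points are libraries and lines join the means of each time. In the light all GF points of Skil lie below the convR points, and GF points of Ccdc116 lie above the convR points of the same time.

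**Figure D5:**
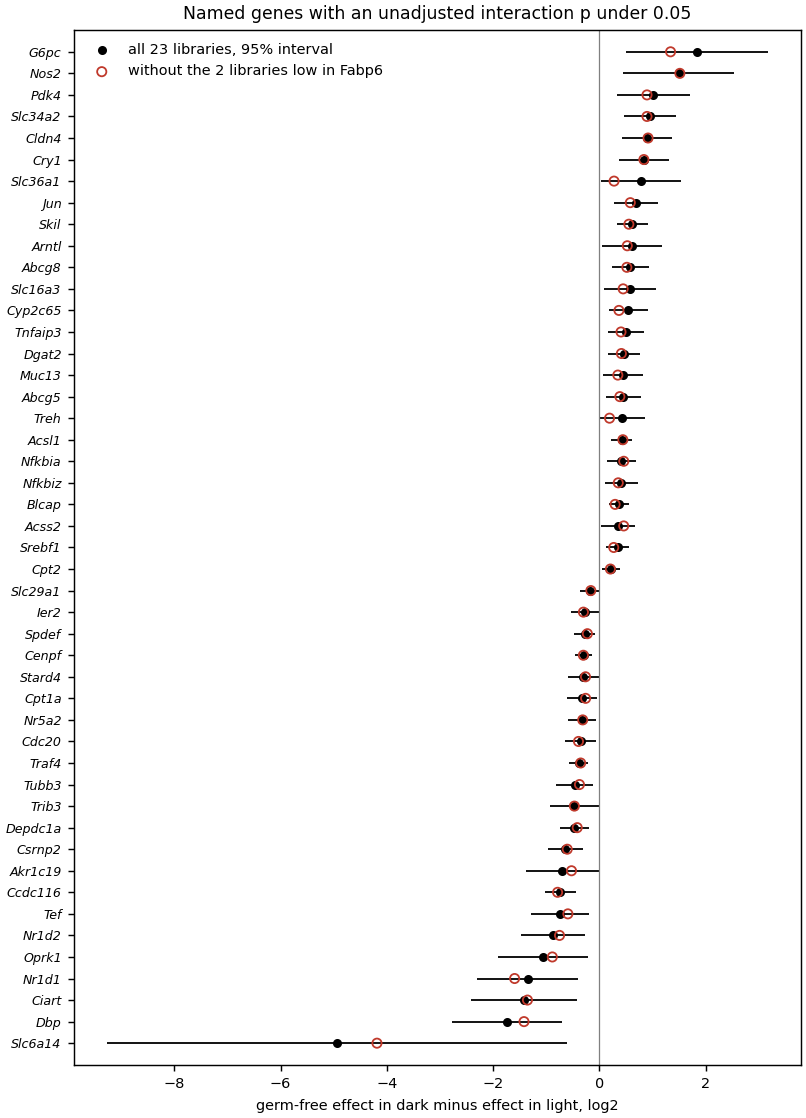
The GF effect in the dark minus that in the light, in log2 (horizontal axis), of the 47 named genes with an unadjusted interaction p under 0.05, 25 above and 22 below 0. Black points and bars are estimates and 95% intervals with all 23 libraries, red rings are estimates without the 2 libraries low in Fabp6, and none of the 47 passed the adjusted test.

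Lipid genes differed between lists. Of 25 genes of cholesterol synthesis, 15 rose in GF ileum in the dark and 14 in the light, with medians of 0.51 and 0.56 log2 and a median interaction of -0.05 log2. The light count was 9 without GF ZT2 replicate 2 and 23 without convR ZT6 replicate 1, and the dark count was 10 without GF ZT14 replicate 2. Stard4, a carrier of cholesterol inside the cell, rose by 0.64 log2 in the light and had 0.34 log2 in the dark, where its call was lost without ZT18 (adjusted p = 0.105).

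Of 16 genes of fatty acid synthesis, 6 rose in the dark and 0 in the light, with medians of 0.41 and 0.24 log2. None of these 16 had a called interaction, so the counts do not show that the phases differ. In fits that left out 1 library the light count was 0 to 4, with 4 without GF ZT14 replicate 1. Without GF ZT22 replicate 1 the dark median was 0.12 log2, with 2 members lower. Adipocyte markers moved with this: their mean was 44.6 CPM in that library and 8.42 to 16.4 CPM in the other GF libraries, against 15.8 to 30.3 CPM in convR ileum in the dark, and 6.70 to 16.4 CPM in GF and 10.55 to 28.2 CPM in convR ileum in the light. The dark median of the 8 adipocyte markers, of which 1 fell in each phase, was -1.11 log2 with that library and -2.05 log2 without it, when 6 fell in the dark. Their part in the fatty acid synthesis values was not tested. Srebf1, the master regulator of this pathway, held 89.5, 92.3 and 120 CPM in GF and 60.8, 64.7 and 74.9 CPM in convR ileum in the dark. In the light its GF libraries held 69.0, 70.0, 71.1, 78.2 and 80.1 CPM, and its convR libraries 56.5, 62.7 and 78.2 CPM. GF and convR libraries were apart in the dark and overlapped in the light. Srebf1 rose by 0.54 log2 in the dark, and its light effect was 0.19 log2 (adjusted p = 0.0764, edgeR), with an interaction of 0.35 log2 (unadjusted p = 0.00336). Of 25 genes of fatty acid oxidation and PPAR alpha targets, 10 rose in the dark and 7 in the light. Pdk4, which shuts pyruvate out of oxidation, had effects of 1.55 log2 in the dark (adjusted p = 4.70e-05) and 0.54 log2 in the light (adjusted p = 0.123, edgeR).

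Genes of fat absorption had a median effect of 0.34 log2 in the dark and -0.12 log2 in the light. Without convR ZT6 replicate 2, a library low in Fabp6, the light median was 0.07 log2. The opposite signs thus rested on that library. Of 23 members, 5 were higher and 1 lower in GF in the dark, and 5 were lower in the light. Over all genes 12.4% were higher and 16.1% lower in the dark, and 13.5% were lower in the light. Without GF ZT14 replicate 1 there were 2 higher in the dark, and without GF ZT2 replicate 2 there were 3 lower in the light. Over all 18944 genes the interaction was above 0 for 10013, with a median of 0.01 log2. Among the 23 members it was above 0 for all, with a median of 0.38 log2. Without the 2 libraries low in Fabp6, 3 were higher and 1 lower in the dark, and 1 was higher and 2 lower in the light. The interaction was then above 0 for 19 of 23, with a median of 0.10 log2. Markers of proximal enterocytes moved with it, with a median interaction of 0.58 log2 over 12 markers and 0.14 log2 without those libraries. The 2 lists are not separate, as they share the member with the largest interaction of each, 2.245 log2. Fabp1, a fatty acid carrier of the proximal gut, averaged 54.3 ± 53.5 CPM in GF and 26.3 ± 20.4 CPM in convR ileum in the dark, and 31.8 ± 15.1 CPM in GF and 90.1 ± 131 CPM in convR ileum in the light. Dgat2, which makes triglyceride, held 120, 126 and 134 CPM in GF and 89.8, 136 and 149 CPM in convR ileum in the dark. Light-phase values of its GF libraries were 84.2, 85.4, 88.3, 89.8 and 112 CPM, and those of its convR libraries 106, 135 and 156 CPM. Dgat2 had an effect near 0 in the dark and fell by 0.47 log2 in the light, a call lost without ZT10 (adjusted p = 0.0523).

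Of 25 cell division genes, 20 fell in GF ileum in the dark and 6 in the light, where 16.1% and 13.5% of all genes fell, with medians of -0.30 and -0.18 log2. The interaction was below 0 for 24 of 25 with a median of -0.12 log2, under the size that could be detected, and none was called. Without GF ZT22 replicate 2 the dark count was 11, and without GF ZT6 replicate 1 the light count was 3. Without the 2 libraries low in Fabp6 the counts were 11 in the dark and 4 in the light. The difference between these counts was not tested. Ccnd1, the cyclin of the G1 phase, averaged 70.9 ± 8.46 CPM in GF and 150 ± 24.2 CPM in convR ileum in the dark, and 71.2 ± 8.39 CPM in GF and 128 ± 37.5 CPM in convR ileum in the light. Cdc20, an activator of the anaphase complex, fell by 0.52 log2 in the dark and had -0.17 log2 in the light.

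Seen the other way, few genes differed between dark and light as phase means. In GF ileum 26 genes passed (0.137%), 20 higher in the dark (0.106%) and 6 lower (0.0317%). In convR ileum 1 passed (0.00528%), Tff2, a trefoil peptide, at 0.40 ± 0.19 CPM in the dark and at 0 in all 6 light libraries. These values are near the floor, and 0 genes passed in convR ileum with a filter at a mean of at least 1 CPM. Among the 26 was Fmo2, a flavin monooxygenase, at 1.02 log2 in GF and 0.64 log2 in convR ileum, dark over light. Cry1 had 1.07 log2 in GF and 0.24 log2 in convR ileum. Both genes' estimates were above 0 with and without a flora. Skil had 0.63 log2 in GF and 0.01 log2 in convR ileum, Acsl1 0.44 and 0.02 log2, and Srebf1 0.40 and 0.05 log2. Nr1d1 had -2.62 log2 in GF and -1.27 log2 in convR ileum, and Ccdc116 -0.89 and -0.16 log2. The difference between these 2 sets of values is the interaction itself, which passed for none. DESeq2 called 92 genes in GF and 51 in convR ileum.

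Several genes named for the size of their effect were called in both phases. Ceacam10, an adhesion molecule of the carcinoembryonic antigen family, held 0.140, 0.216 and 0.288 CPM in GF and 17.1, 18.2 and 24.4 CPM in convR ileum in the dark. In the light its GF libraries held 0.0433, 0.0948, 0.251, 0.266 and 0.332 CPM, and its convR libraries 14.1, 19.4 and 22.2 CPM. The effect was -6.47 log2 in the dark and -6.49 log2 in the light, with an interaction of 0.03 log2 (SE 0.35). Saa1, an acute phase apolipoprotein, fell by 5.12 log2 in the dark and by 4.78 log2 in the light. Ubd, a ubiquitin-like protein induced by interferon gamma, fell by 4.27 and 4.93 log2.

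Slc6a14, an amino acid carrier, had the widest difference between phases, and the widest interval, of the 47 named genes with an unadjusted interaction p under 0.05. In GF ileum it held 0.0331, 0.103 and 0.322 CPM in the dark, and 0.0627, 0.0948, 0.147, 0.173 and 1.56 CPM in the light. In convR ileum it held 0.479, 21.1 and 97.8 CPM in the dark (lowest, median and highest) and 0.289, 1.504 and 7.58 CPM in the light. The dark convR values above 30 CPM came from 3 of 6 libraries, both of ZT14 and 1 of ZT22. The effect was -7.67 log2 in the dark and -2.73 log2 in the light, where it did not pass, with an interaction of -4.94 log2 (SE 2.04, unadjusted p = 0.0277).

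Among the rises, Tm4sf4, a tetraspanin-like protein, had 2.94 log2 in the dark and 2.51 log2 in the light. Without ZT6, or without ZT10, its light effect did not pass. Akr1c19, an aldo-keto reductase, held 182, 247 and 335 CPM in GF and 24.7, 65.5 and 102 CPM in convR ileum in the dark. Light-phase values of its GF libraries were 155, 183, 228, 304 and 320 CPM, and those of its convR libraries 14.8, 36.3 and 54.4 CPM. No GF library overlapped a convR library in either phase, and Akr1c19 rose by 2.00 log2 in the dark and by 2.69 log2 in the light. Oprk1, the kappa opioid receptor, rose by 1.60 log2 in the dark and by 2.66 log2 in the light. The uridine and pyrimidine carrier Slc28a1, the retinol dehydrogenase Rdh7 and the esterase Aadac rose by 3.19, 2.32 and 2.30 log2 in the dark. In the light Slc28a1 had 2.47 log2, with an adjusted p of 0.0604 without convR ZT10 replicate 1 (edgeR).

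The interaction of the ileum was also set against that of the duodenum in a fit of all 47 libraries. The labels do not say whether ileum and duodenum came from the same mice. The fit took all libraries as independent, so its SEs and p-values leave out any such pairing. Of 19707 genes, 0 had an interaction that differed between ileum and duodenum (0%), with 402 (2.04%) at an unadjusted p under 0.05. In the duodenum 0 genes had a called interaction and 571 (2.9%) had an unadjusted p under 0.05. Both shares are below the 0.05 that chance gives. For Skil the interaction was 0.62 log2 in the ileum fit and 0.23 log2 (SE 0.15) in duodenum, and the difference in the joint fit was 0.38 log2 (SE 0.21, unadjusted p = 0.0769). Among the named genes Srebf1 had the smallest unadjusted p of this difference, 0.00354 (edgeR). Its interaction was 0.35 log2 in the ileum fit and -0.30 log2 (SE 0.14) in duodenum, with a difference of 0.64 log2 (SE 0.20) that did not pass. A phase-dependent response particular to the ileum was therefore not detected.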

How the data were processed

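Libraries were made from 250 ng of total RNA, depleted of ribosomal RNA, amplified for 12 cycles, pooled by 24 and sequenced in 100 nt pairs, per the labels' protocols. Reads were aligned with STAR 2.4.0i to mm10, per the submitters' processing notes. The authors deposited raw exon counts per gene. Which program and annotation made the counts, and whether strand was used, is not given in these sources.

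Symbols and coordinates came from GENCODE M21 by gene identifier, which matched 36308 of 38087 genes. Genes were filtered with edgeR 4.0.16 at a minimum of 10 counts in the smallest group and scaled by TMM. CPM values use these scaled library sizes. The model had ZT as a factor plus a GF effect in the dark and one in the light (8 coefficients, 15 residual degrees of freedom), with robust quasi-likelihood tests and Benjamini-Hochberg adjustment over all genes at 0.05. All p-values are two-sided. Alternatives were DESeq2 1.42.0, other scalings, filters and models, a replicate block, leaving out libraries or times, and other size rules for a 1-phase response. The test was checked on simulated data.

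Named genes were no predicted genes and, outside the core clock list (Bhlhe41), at least 2 CPM on average: per direction the 6 smallest interaction p, per phase the 4 largest rises and falls that held at all 3 times, up to 3 members of each of 51 lists with an unadjusted interaction p under 0.05, and the core clock list. Other list members, and Tff2 and Fmo2, are named as examples, chosen after their values were seen. Members, lists and rules were chosen with earlier results of these data known. Promoters came from RefSeq, GRCm38.p6. Replicates of a time and group differed by more than counting noise (chi-square per degree of freedom 45.5 to 123). Residuals of equally numbered GF and convR libraries had correlations of -0.047 to 0.394 over 5 times, so numbers were not taken as pairs. Some genes that this rule picks are not reported here.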

Additional observations from a re-analysis of the deposited data

Results flagged for a closer look

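Single libraries stood far from the rest of their group of flora and phase in 26 of 344 groups looked at (7.56%), where chance gives about 1 in 20. All values are CPM, with the range of the other libraries after each.

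In GF ileum in the dark, Cry2 stood at 64.2 in ZT14 replicate 1 (others 36.2 to 45.7), Oprk1 at 4.355 in ZT18 replicate 1 (others 1.75 to 2.69) and Srebf1 at 120.4 in ZT18 replicate 2 (others 89.5 to 94.4). The mean of the adipocyte markers was 44.62 in ZT22 replicate 1 (others 8.42 to 16.4).

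In GF ileum in the light, the only ZT2 library held 74.07 for Arntl (others 10.5 to 27.1), 40.08 for Blcap (others 34.0 to 35.7), 112.4 for Dgat2 (others 84.2 to 89.8) and 4521 for Fabp6 (others 2400 to 3014). The others are of ZT6 and ZT10. Arntl, a clock gene, reached 66.1 in convR ileum in the light, and its GF and convR means at ZT2 differed by 0.25 log2. Slc6a14 stood at 1.56 in ZT6 replicate 1 (others 0.0627 to 0.173), Tubb3 at 4.85 in ZT10 replicate 2 (others 3.69 to 3.92) and Cyp2c65 at a low 100.1 in ZT10 replicate 1 (others 117.5 to 120.4). The tuft cell markers averaged 9.472 in ZT6 replicate 2 (others 5.03 to 5.43).

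In convR ileum in the dark, ZT22 replicate 2 held 217.9 for Abcg8 (others 134.4 to 153.3), 24.4 for Ceacam10 (others 17.1 to 19.2), 422.6 for the mean of B and plasma cell markers (others 179.8 to 249.8) and 2.654 for that of red blood cells (others 1.25 to 1.74). ZT22 replicate 1 held a low 54.78 for Bhlhe40 (others 82.9 to 97.0) and 274.7 for the smooth muscle markers (others 204.3 to 229.1). Nos2 stood at 343.1 in ZT18 replicate 1 (others 71.1 to 147.2) and Saa1 at 33.6 in ZT14 replicate 2 (others 8.65 to 17.2).

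In convR ileum in the light, ZT10 replicate 1 held 9.41 for Cd6 (others 2.98 to 5.28), 495.2 for Nos2 (others 137.3 to 249.5) and 87.94 for Ubd (others 2.98 to 31.4). ZT6 replicate 1 held 7.584 for Slc6a14 (others 0.289 to 1.97) and 189.8 for the colonocyte markers (others 135.6 to 152.3). Srebf1 stood at 78.16 in ZT6 replicate 2 (others 56.5 to 63.9).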

How the results depend on the processing

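The interaction called 0 genes under 14 alternatives and under each fit without 1 library. It called 1 gene, Ccdc116, with DESeq2 and with no filter on low counts, and that gene then also counted as responding mainly in 1 phase (1 gene). The difference between ileum and duodenum called 0 genes in each alternative run. The GF effect in the light called 2214 genes without ZT10 and 3278 to 4298 without 1 library. The GF effect in the dark called 2864 genes with the inner times only, 3092 without ZT14, 3352 without ZT22 and 4458 to 5436 without 1 library, the lowest without GF ZT22 replicate 2. Genes called in both phases numbered 1895 with the inner times only, 1966 without ZT10 and 2678 to 3322 without 1 library. Leaving out times also leaves fewer libraries in these fits.

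Dark against light within GF ileum called 92 genes with DESeq2, 5 without ZT terms, 80 with the inner times, 75 without ZT2, 4 without ZT6, 3 without ZT10, 10 without ZT18, and 13 (without GF ZT6 replicate 1) to 30 without 1 library. Within convR ileum it called 2 with library size scaling, 11 with no filter, 0 with a mean of at least 1 CPM, 51 with DESeq2, 2 with cell means, 0 without the 2 libraries low in Fabp6, 3 without ZT2, 0 without ZT6, 23 without ZT10, 0 without ZT14, 0 without ZT18, 10 without ZT22, and 0 to 3 without 1 library. The cause was not tested. No result changed direction past its threshold. With a replicate block the light effect called 4873 genes, the dark effect 6129 and the interaction 0 (783 at an unadjusted p under 0.05). Equally numbered libraries deviated together by a correlation of 0.293, 0.0459, -0.019, -0.047 and 0.394 at ZT6 to ZT22, so the numbers are not known to pair the samples. With 5 or 6 libraries a group, phase differences of 0.5 log2 are mostly below what this depth and spread can show.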

Other observations

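The mean level of the Paneth cell markers split by replicate number in convR ileum. At ZT2, ZT6, ZT10, ZT14, ZT18 and ZT22 it was 1314, 1256, 1017, 1006, 1289 and 1123 CPM in replicate 1, and 1694, 1662, 1443, 1470, 1555 and 1827 CPM in replicate 2. In GF ileum the level was 575, 480, 914, 668 and 610 CPM in replicate 1 and 1147, 678, 628, 689 and 827 CPM in replicate 2 at ZT6 to ZT22, higher in replicate 1 at ZT14. This pattern was noticed in the data and was not tested.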
